A study of Bos taurus with 9 samples.

Results

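The microRNAs (miRNAs) examined were bta-miR-1271 and the 3 members of the miR-183 cluster, bta-miR-182, bta-miR-183 and bta-miR-96, which are 4 of the 515 mature bovine miRNAs measured. bta-miR-1271 was selected on its CPM difference between the 2 groups of cattle in these same libraries, so its group difference is given as a description without a test. The cluster members were added because bta-miR-96 has the same seed as bta-miR-1271 and because the other two are transcribed with bta-miR-96, and the question was whether the cluster follows bta-miR-1271. All 4 reached 5 CPM (reads scaled to the library total, as the authors deposited them) in at least 4 libraries and so belonged to the 245 miRNAs tested.

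A miRNA pairs with messenger RNAs mainly through its seed, a short stretch near its 5′ end, and lowers the stability and translation of its targets. miRNAs with the same seed are grouped into a family and can recognise the same sites, which is the case for miR-96 and miR-1271 although they come from unrelated loci. The cluster of miR-183, miR-96 and miR-182 is made as 1 primary transcript, is abundant in sensory organs and in many epithelia, and its members have similar but not identical seeds. Mutations in the seed of miR-96 cause hearing loss in human and mouse, and in human cells miR-96 and miR-182 repress the transcription factor FOXO1. In the RefSeq bovine annotation (assembly ARS-UCD2.0, used for gene order alone) MIR182, MIR96 and MIR183 were direct neighbours in this order, with NRF1 as the next gene on the side of MIR182. MIR1271 lay within ARL10, a gene for a small GTPase of the ADP-ribosylation factor-like family, and was followed by NOP16.

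Small RNA libraries were made from the rectal wall of 9 feedlot steers, 1 per animal. The 4 non-shedders (NS) were negative for E. coli O157. In the 5 super-shedders (SS) each g of feces had held more than 10000 colony-forming units of it. All were British x Continental animals on a barley-based finishing diet, the infection was natural and not given, and age is not stated in the sources used here. SS were identified days before slaughter, and not all were above that level by then. In the study, SS steer 310 alone had a count above it on the day of slaughter. The other SS steers were recorded only as positive, without a count, on the day before. The tissue was whole rectal wall, so the libraries hold epithelium, muscle, lymphoid and vascular tissue together.

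The library totals were 650726 to 6314556 reads, with 650726 to 2316164 in NS and 1486495 to 6314556 in SS, so that 1 read stood for 0.158 to 1.54 CPM. The muscle miRNA bta-miR-143 took 22.1% to 73.1% of a library. The 8 miRNAs of the intestinal epithelium (the miR-200 family with bta-miR-141 and bta-miR-429, and bta-miR-192, bta-miR-194 and bta-miR-215) were all detected, and their sum ranged from 23562 to 123345 CPM among NS steers and from 4144 to 396231 CPM among SS steers. The library of SS steer 274 stood apart with the lowest epithelial sum, 4144 CPM, against 18282 CPM in the next lowest, SS steer 310. Its share of bta-miR-143, 73.1%, was the highest but did not set it apart from SS steer 310 with 73.0%. The main group differences and correlations that it moved are given with and without it.

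bta-miR-182 was the most abundant of the cluster, at place 60 of 515 by mean CPM. Its level was 1209, 1601, 879 and 367 CPM in NS steers 108, 152, 165 and 242. In SS steers 274, 287, 294, 299 and 310 it was 13.7, 1611, 1526, 842 and 127 CPM. Of the SS libraries, 2 thus lay below the NS range, 2 within it and 1 above it. The 1 above, SS steer 287, was level with NS steer 152 within counting error (95% intervals 1563 to 1659 and 1545 to 1660 CPM). The SS mean was 824 ± 751 CPM and the NS mean was 1014 ± 523 CPM (mean ± SD here and below, n = 5 and n = 4). The log2 difference, SS minus NS on the log2(CPM + 1) scale, was -1.43 (SE 1.23, 95% interval -4.13 to 1.26), with an adjusted p of 0.503 by limma. It was -0.31 without SS steer 274, -0.65 after TMM scaling, -0.16 by edgeR and -0.13 by DESeq2 on the recovered reads, so its size depended on that library and on the method.

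bta-miR-183 came next in the cluster, at place 131 of 515. Its level was 98.4, 135, 53.5 and 17.8 CPM in NS steers 108, 152, 165 and 242, and 1.58, 179, 144, 118 and 22.01 CPM in SS steers 274, 287, 294, 299 and 310. Of the SS libraries, 2 lay above every NS library, 1 lay below and 2 lay within the NS range. The means were 93.1 ± 77.6 CPM in SS and 76.2 ± 51.3 CPM in NS, and the log2 difference was -0.44 (SE 1.16, 95% interval -2.98 to 2.10, limma adjusted p = 0.816). The sign of this difference was not settled, since it was 0.59 without SS steer 274 and 0.27 after TMM scaling.

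bta-miR-96, which has the seed of bta-miR-1271, was the least abundant of the 4, at place 205 of 515. It was seen at 26.1, 11.8, 6.48 and 3.35 CPM in NS steers 108, 152, 165 and 242, which were 17, 22, 15 and 3 reads. In SS steers 274, 287, 294, 299 and 310 it was at 0.225, 39.5, 41.7, 12.8 and 3.33 CPM, from 1, 107, 62, 41 and 21 reads. SS steers 287 and 294 were above every NS library and SS steers 274 and 310 were below, and 6 of the 9 libraries reached 5 CPM. The 95% interval of NS steer 242 (0.690 to 9.78 CPM) overlapped those of SS steers 274 and 310, so counting error leaves their order open. Likewise the intervals of SS steers 287 and 294 overlapped that of NS steer 108 (15.2 to 41.8 CPM). The means were 19.5 ± 19.8 CPM in SS and 11.9 ± 10.1 CPM in NS, with a log2 difference of 0.03 (SE 1.01, 95% interval -2.18 to 2.23, limma adjusted p = 0.985). Leaving out SS steer 274 gave 0.80 and leaving out SS steer 294 gave -0.48, while TMM scaling gave 0.56, the edgeR quasi-likelihood fit 0.92 and DESeq2 0.94, so this difference had no settled sign or size either.

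A miRNA was called where its log2 difference was larger than 1 in size and its adjusted p lay under 0.1. None of the 3 cluster members was called by limma, by either edgeR test or by DESeq2, and 0 of 3 had an unadjusted p under 0.05 by any of these. Over all 245 miRNAs tested, limma called 0 (0%), while 40 (16.3%) had an unadjusted p under 0.05. The edgeR exact test called 0.408% and DESeq2 called 3.67%. The groups overlapped for each of the 4 miRNAs examined, against 6.53% of tested miRNAs whose SS libraries all lay below the NS libraries and 0% whose SS libraries all lay above. The intervals of the cluster members span more than 4 log2 units, so group differences of several fold in either direction were not detectable with these libraries. The median log2 difference of all tested miRNAs was -0.70 on the deposited scale and 0.06 after TMM scaling. Relative to that median of -0.70, bta-miR-96 stood at 0.72, bta-miR-183 at 0.26, bta-miR-182 at -0.74 and bta-miR-1271 at 2.18.

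bta-miR-1271, at place 147 of 515, was at 24.6, 28.4, 12.5 and 19.0 CPM in NS steers 108, 152, 165 and 242, from 16, 53, 29 and 17 reads. In SS steers 274, 287, 294, 299 and 310 it was at 20.5, 25.8, 200.5, 96.5 and 65.2 CPM, from 91, 70, 298, 308 and 412 reads. The excess in SS was thus carried by SS steers 294, 299 and 310, all above every NS library, whereas SS steers 274 and 287 lay inside the NS range. The means of 81.7 ± 73.3 CPM in SS and 21.1 ± 6.93 CPM in NS differed by 1.49 on the log2 scale (SE 0.66), which ran from 1.05 without SS steer 294 to 1.86 without SS steer 274. It was 2.24 after TMM scaling, 2.52 by edgeR and 2.54 by DESeq2. The NS libraries were close to each other for bta-miR-1271, with a 2.27-fold range, while the SS libraries ranged over 9.78-fold. Over all 9 libraries the range was 16.0-fold, beside 114-fold, 117-fold and 185-fold ranges of bta-miR-183, bta-miR-182 and bta-miR-96. The low ends of these cluster ranges were all SS steer 274, at 1.58, 13.7 and 0.225 CPM (1 read for bta-miR-96). Among the other libraries the lowest levels were 17.8, 127 and 3.33 CPM, against highest levels of 179, 1611 and 41.7 CPM. The wider ranges of the cluster thus rested on that library, which does not bound the range of bta-miR-1271.

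**Figure D1:**
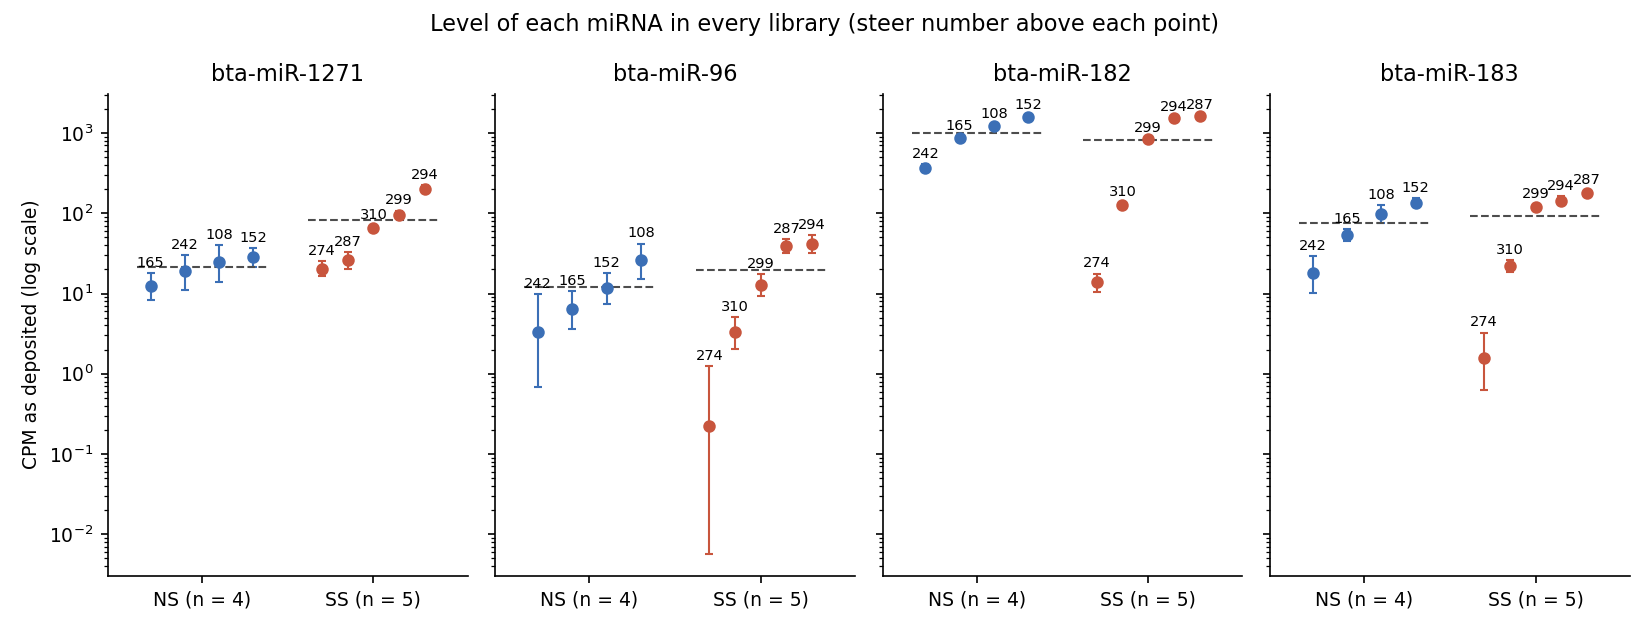
Level of each miRNA in CPM on a log scale (y axis) by group (x axis), with 1 point per steer, labelled by steer number and ordered by value, for 4 NS and 5 SS libraries; bars are 95% intervals from the read counts and dashed lines are group means. SS steers 294, 299 and 310 are above all NS points for bta-miR-1271. For the 3 cluster members SS steer 274 is the lowest. SS points also lie above the NS points, for bta-miR-182 only SS steer 287 at 1611 CPM against 1601 CPM in NS steer 152.

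The order of the levels within a library was fixed in the cluster and not for bta-miR-1271. bta-miR-182 was above bta-miR-183, and bta-miR-183 above bta-miR-96, in 9 of 9 libraries. bta-miR-1271 was above its seed partner bta-miR-96 in 7 of 9, the exceptions being NS steer 108 and SS steer 287. It was above bta-miR-183 in 4 (NS steer 242 and SS steers 274, 294 and 310) and above bta-miR-182 in SS steer 274 alone. Mature miRNAs are of nearly the same length, so no length correction was made, but ligation and amplification favour some sequences over others and an order between miRNAs includes this. Over all 9 libraries the means were 909 ± 628 CPM for bta-miR-182, 85.6 ± 63.8 CPM for bta-miR-183, 54.8 ± 61.0 CPM for bta-miR-1271 and 16.1 ± 15.8 CPM for bta-miR-96. The mean of bta-miR-1271 was thus within 1 of its SD of both neighbours in this order, bta-miR-183 and bta-miR-96.

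The combined level of bta-miR-1271 and bta-miR-96, which have a common seed, was 50.7, 40.2, 19.0 and 22.3 CPM in NS steers 108, 152, 165 and 242. It was 20.7, 65.3, 242, 109 and 68.6 CPM in SS steers 274, 287, 294, 299 and 310. SS steer 274 lay within the NS range and the other 4 SS libraries lay above it. As the sum contains bta-miR-1271, this is a description as well.

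bta-miR-1271 made up 48.5%, 70.7%, 65.9% and 85.0% of the pair in NS steers 108, 152, 165 and 242, a mean of 67.5 ± 15.1%. In SS steers 274, 287, 294, 299 and 310 it made up 98.9%, 39.5%, 82.8%, 88.3% and 95.2%, a mean of 80.9 ± 24.0%. The share in SS steer 287, 39.5% with a 95% Clopper-Pearson interval of 32.3% to 47.2%, was the lowest of the 9, and in this steer the higher sum came from bta-miR-96. Such intervals cover counting error only, and they were widest in the shallow NS libraries, at 30.8% to 66.5% in NS steer 108 and 62.1% to 96.8% in NS steer 242. The same seed was thus supplied mainly by bta-miR-1271 in 7 libraries, to equal parts within the interval in NS steer 108, and mainly by bta-miR-96 in SS steer 287.

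**Figure D2:**
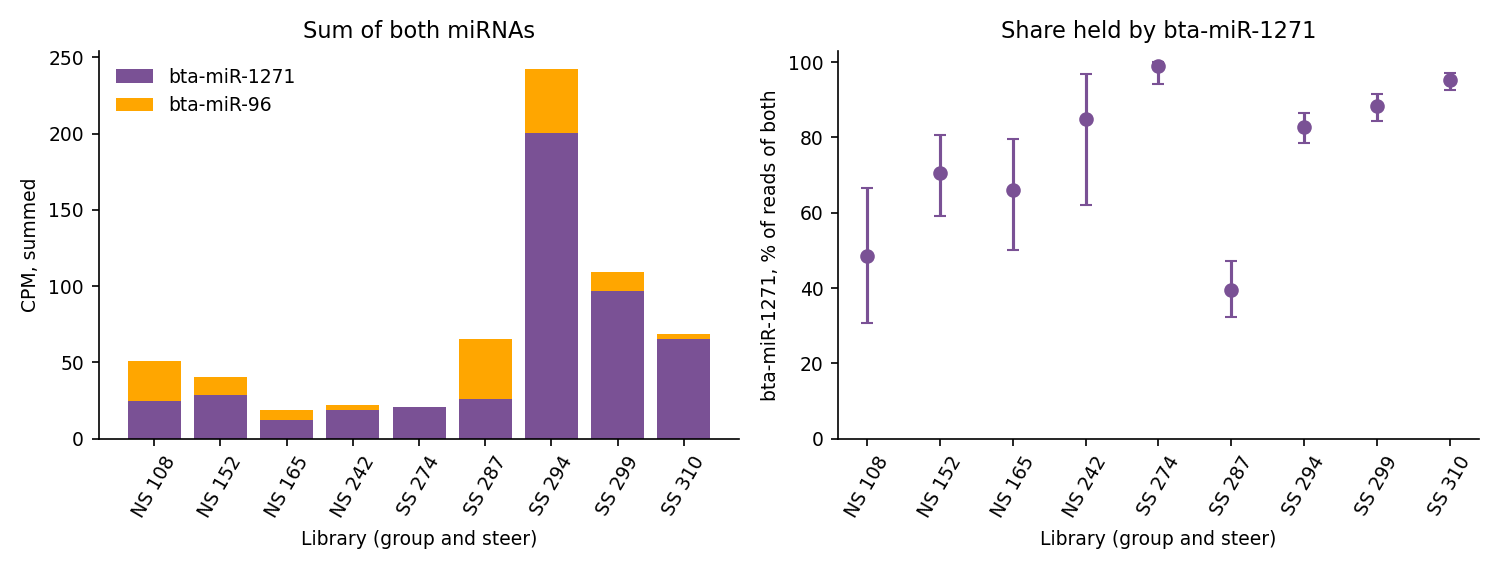
Levels of bta-miR-1271 and bta-miR-96, which have the same seed, in CPM as stacked bars in each of 4 NS and 5 SS libraries (x axis), and beside them the percentage of their summed reads that bta-miR-1271 took, with 95% Clopper-Pearson intervals as bars. bta-miR-1271 took between 39.5% (SS steer 287) and 98.9% (SS steer 274) of the pair.

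Across the 9 libraries the levels of the cluster members were closely correlated, and no correlation of bta-miR-1271 with them passed the test. All 14 correlations of log2(CPM + 1) computed, 6 between the miRNAs examined and 8 with cell type levels, were adjusted together, with permutation p. bta-miR-182 and bta-miR-183 had a Pearson r of 0.964 (permutation p = 0.000631, adjusted p = 0.00147) and a Spearman rho of 0.917 (permutation p = 0.00131, adjusted p = 0.00459). bta-miR-96 and bta-miR-183 had r = 0.935 (permutation p = 0.000171, adjusted p = 0.00115) and rho = 0.900 (permutation p = 0.00203, adjusted p = 0.00568). bta-miR-96 and bta-miR-182 had r = 0.894 (permutation p = 0.000328, adjusted p = 0.00115) and rho = 0.833 (permutation p = 0.00827, adjusted p = 0.0193). Without the 2 libraries farthest from the median of the first miRNA of each pair, SS steer 274 with SS steer 310 for the first pair and with SS steer 294 for the others, r was still 0.933, 0.898 and 0.807. Without SS steer 274 alone it was 0.890, 0.893 and 0.815.

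bta-miR-1271 had r = 0.407 with bta-miR-96 (permutation p = 0.281, adjusted p = 0.357; rho 0.483, permutation p = 0.194, adjusted p = 0.270). Its r was 0.352 with bta-miR-183 (permutation p = 0.361, adjusted p = 0.422; rho 0.567, permutation p = 0.121, adjusted p = 0.241) and 0.197 with bta-miR-182 (permutation p = 0.624, adjusted p = 0.624; rho 0.250, permutation p = 0.521, adjusted p = 0.561). Without SS steers 294 and 299, the 2 farthest from the median of bta-miR-1271, these fell to 0.02, 0.04 and -0.15. Without SS steer 274 alone they were 0.34, 0.28 and -0.01. The 3 libraries with the most bta-miR-1271 held high, middle and low cluster levels, since SS steer 294 had 1526 CPM of bta-miR-182, SS steer 299 had 842 CPM and SS steer 310 had 127 CPM. SS steer 287 had the highest bta-miR-183 of the 9 libraries and, with NS steer 152, the highest bta-miR-182. Its level of bta-miR-1271 was within the NS range. With 9 libraries a moderate correlation is not detectable, so the absence of a call does not show that the levels are unrelated.

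The mean log2 level of the 8 epithelial miRNAs stood in close relation to the cluster. Its r was 0.959 with bta-miR-182 (permutation p = 1.93e-05, adjusted p = 0.00027), 0.954 with bta-miR-183 (permutation p = 0.000568, adjusted p = 0.00147) and 0.944 with bta-miR-96 (permutation p = 0.000262, adjusted p = 0.00115), with rho of 0.95, 0.917 and 0.917 (each permutation adjusted p = 0.00459). Without SS steers 274 and 310 these r were 0.969, 0.859 and 0.859. For bta-miR-1271 the r was 0.247 (permutation p = 0.522, adjusted p = 0.562; rho 0.367, permutation p = 0.336, adjusted p = 0.392), and 0.319 without those 2 libraries. Without SS steer 274 alone it was 0.107. In whole tissue, fewer epithelial cells in a piece and less of a miRNA per epithelial cell cannot be told apart.

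The mean of the 6 smooth muscle miRNAs (among them bta-miR-143, bta-miR-145 and bta-miR-1) had negative r with all 4 miRNAs, -0.42 with bta-miR-1271, -0.54 with bta-miR-96, -0.56 with bta-miR-182 and -0.47 with bta-miR-183. None of these passed (permutation adjusted p = 0.357, 0.241, 0.241 and 0.317, rho -0.22, -0.47, -0.53 and -0.50 with permutation adjusted p = 0.581, 0.270, 0.258 and 0.270). Without NS steer 242 and SS steer 294, the 2 farthest from the median smooth muscle level, the r were 0.06, -0.73, -0.83 and -0.84, of which those of bta-miR-182 and bta-miR-183 passed (permutation adjusted p = 0.0333 and 0.0338). Without SS steer 274 they were -0.36, -0.30, -0.29 and -0.12, so that the negative relation of the cluster to smooth muscle rested in part on that library and on which libraries were left out. After TMM scaling the r of bta-miR-1271 with smooth muscle turned to 0.27, and those of bta-miR-96, bta-miR-182 and bta-miR-183 were -0.29, -0.38 and -0.18. These r thus depended on the scaling as well. With bta-miR-143 left out of both the scaling and the smooth muscle mean, the r of these cluster members were -0.42, -0.45 and -0.31. Here the scaling and the mean changed together, so their parts cannot be told apart.

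**Figure D3:**
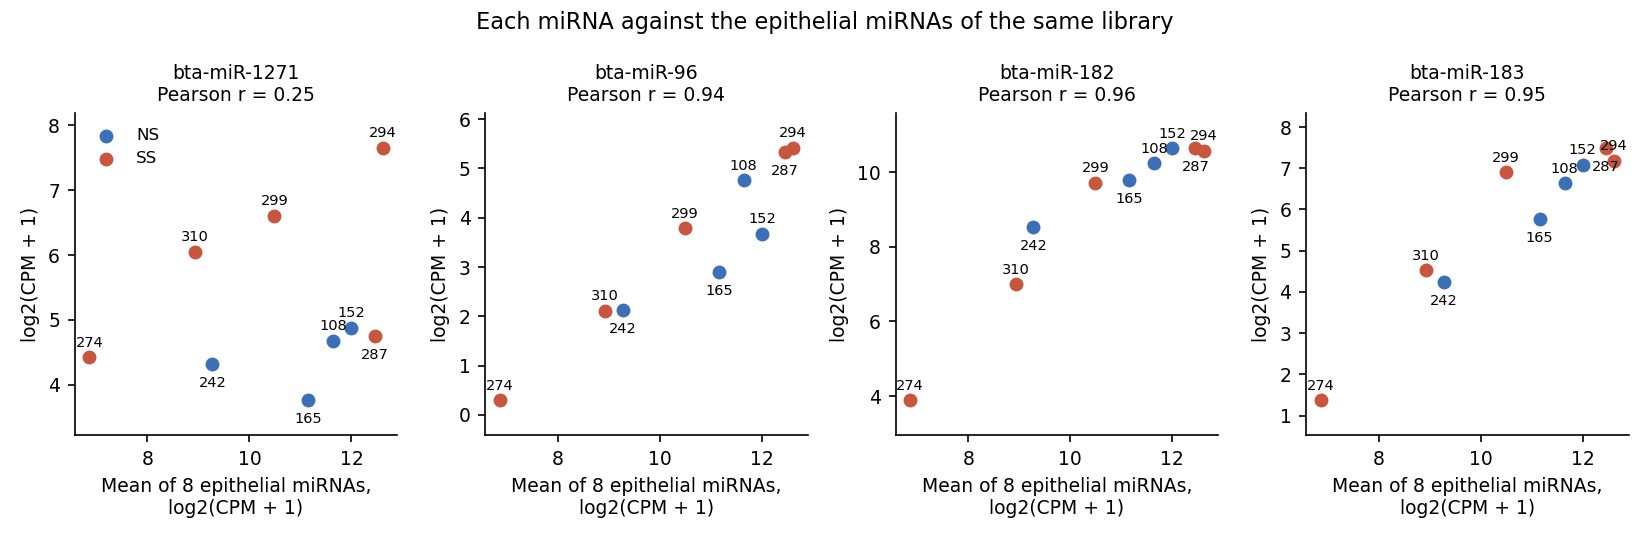
Level of each miRNA (y axis, log2(CPM + 1)) against the mean of 8 epithelial miRNAs in the same library (x axis, log2(CPM + 1)), 1 point per steer, 4 NS and 5 SS. The cluster members rise with the epithelial mean (r of 0.944 to 0.959), while for bta-miR-1271 (r of 0.247) SS steers 294, 299 and 310 stand above the other libraries at high, middle and low epithelial levels.

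Group differences of the cluster were also taken relative to this epithelial mean, which largely removes the scaling of the library. Of the 8 epithelial miRNAs, 8 had a lower mean log2 level in SS, beside 216 of all 245 tested miRNAs. Of these 8, 0 were called, and their median difference was -0.78 beside -0.70 for all tested miRNAs. After TMM scaling 4 of 8 were lower, beside 115 of 245 tested. Without SS steer 274 it was 3 of 8, beside 200 of 244 tested. bta-miR-96 stood at -7.65 ± 0.74 log2 units from the epithelial mean in NS and at -6.88 ± 0.27 in SS, a difference of 0.78 (two-sided exact permutation p = 0.0476, adjusted p = 0.143 over the 3 cluster members), with 3 of 5 SS libraries above every NS library. SS steer 274, among these 3, had 1 read of bta-miR-96 (0.225 CPM), so its value depended on the pseudocount. With a pseudocount of 0.5 CPM the difference was 0.66, and without SS steer 274 it was 0.70 (exact permutation, adjusted p = 0.238 and 0.286). Against the miR-200 family alone this difference was 0.95 (exact permutation, adjusted p = 0.0238), and against bta-miR-192, bta-miR-194 and bta-miR-215 alone it was 0.49 (exact permutation, adjusted p = 0.536), so its call turned on the choice of epithelial miRNAs.

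bta-miR-182 differed by -0.68 log2 units on this scale (-1.90 ± 0.79 and -1.22 ± 0.31, exact permutation p = 0.159, adjusted p = 0.238), with 4 of 5 SS libraries below every NS library and SS steer 299 at -0.77. This difference was -0.41 without SS steer 274 and -0.96 without SS steer 299. bta-miR-183 differed by 0.31 (-4.78 ± 0.79 in SS and -5.09 ± 0.21 in NS, exact permutation p = 0.508, adjusted p = 0.508), with 2 SS libraries above and 2 below every NS library. Without SS steer 299 it was 0.015, and without SS steer 274 it was 0.49. bta-miR-1271, given as a description, was 2.24 log2 units higher in SS (-4.37 ± 2.10 and -6.61 ± 1.12), and 1.75 higher without SS steer 274. It was at -2.43, -7.71, -4.96, -3.88 and -2.88 in SS steers 274, 287, 294, 299 and 310 and at -6.97, -7.12, -7.40 and -4.96 in NS steers 108, 152, 165 and 242. SS steer 274 thus joined SS steers 299 and 310 above every NS library on this scale, SS steer 294 lay at the upper end of the NS range and SS steer 287 lay below all other libraries.

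Within the cluster the proportions of the members were compared, since a ratio inside a library does not depend on its scaling. bta-miR-182 took 83.4% to 94.5% of the cluster reads, bta-miR-183 took 4.60% to 14.5% and bta-miR-96 took 0.675% to 2.44%. For each 100 reads of bta-miR-182 there were 8.13, 8.44, 6.09 and 4.86 reads of bta-miR-183 in NS steers 108, 152, 165 and 242. In SS steers 274, 287, 294, 299 and 310 there were 11.5, 11.1, 9.43, 14.1 and 17.4. Every SS library was above every NS library, by 0.89 on the log2 scale (-3.01 ± 0.34 in SS and -3.90 ± 0.38 in NS, two-sided exact permutation p = 0.0159, adjusted p = 0.0476 over 3 ratios). Of all 29646 ratios between 2 tested miRNAs, 3.88% had groups without overlap.

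The library total moved with this ratio. Its log2 value had r = 0.749 with the log2 ratio (permutation p = 0.0202, adjusted p = 0.0607 over 3 ratios) and rho = 0.833 (permutation p = 0.00827, adjusted p = 0.0248), and r was 0.765 (permutation p = 0.0440) without NS steer 108 and SS steer 310. With the library total as a covariate, an alternative chosen after seeing the data, the SS minus NS difference was 0.62 (SE 0.31). Without single libraries the difference was 0.73 to 0.996, and in 8 of 9 such cases the adjusted p was above 0.05 (0.0536 to 0.107 by exact permutation), where fewer libraries also leave the test a larger smallest p. In SS steer 274 the ratio rests on 7 reads of bta-miR-183 and 61 of bta-miR-182. Without this library the difference was 0.91 (exact permutation, adjusted p = 0.0857).

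For each 100 reads of bta-miR-182 there were 2.16, 0.737, 0.736 and 0.912 reads of bta-miR-96 in NS steers 108, 152, 165 and 242, and 1.64, 2.45, 2.73, 1.53 and 2.62 in SS steers 274, 287, 294, 299 and 310. NS steer 108 lay inside the SS range and the other 3 NS libraries lay below it. The log2 difference was 1.07 (exact permutation p = 0.0397, adjusted p = 0.0595), and without NS steer 108 it was 1.43 (exact permutation, adjusted p = 0.0268). The library total had r = 0.196 with this ratio (permutation p = 0.605, adjusted p = 0.605; rho 0.150, permutation p = 0.708, adjusted p = 0.708; r = 0.262 without NS steer 108 and SS steer 310), and with the total as a covariate the difference was 1.64 (SE 0.45). The ratio of bta-miR-96 to bta-miR-183 differed by 0.18 between the groups (exact permutation p = 0.667, adjusted p = 0.667) and ranged from 8.73 to 29.0 reads per 100. With the library total as a covariate this difference was 1.02 (SE 0.37).

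**Figure D4:**
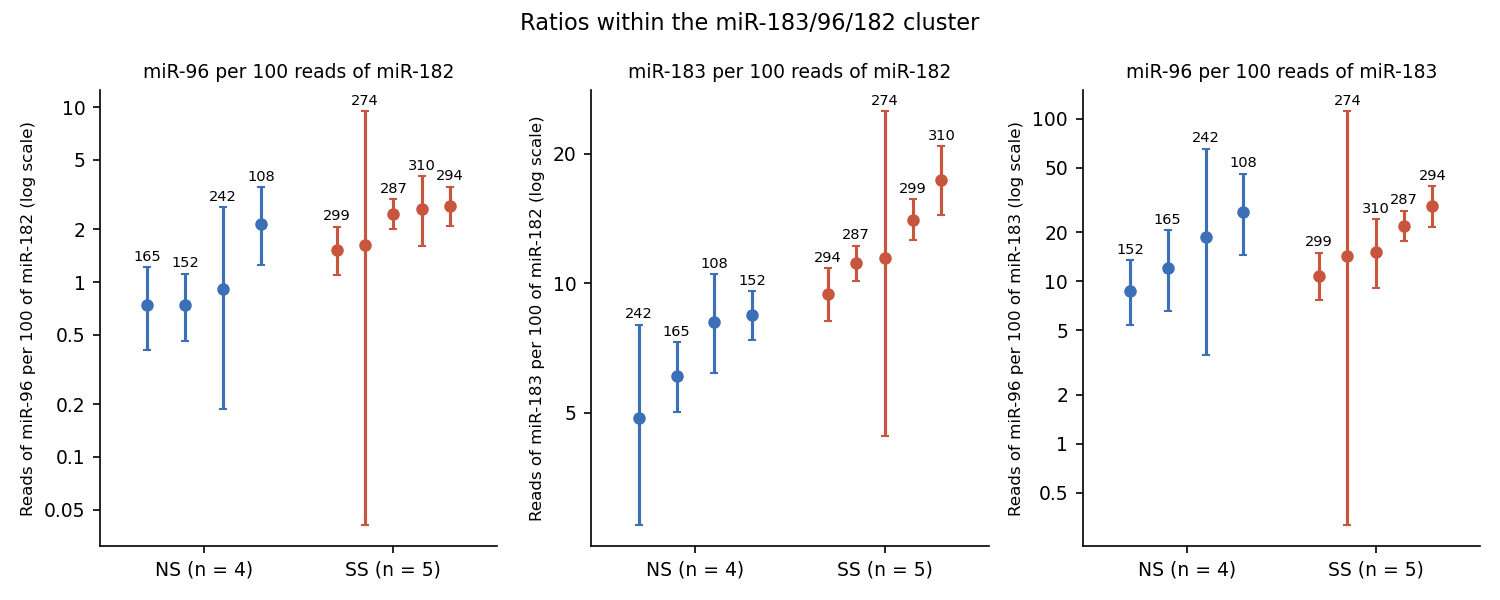
Reads of one cluster member per 100 reads of another (y axis, log scale) in 4 NS and 5 SS libraries, labelled by steer number and ordered by value within a group, with 95% intervals from the read counts as bars. For bta-miR-183 per 100 reads of bta-miR-182 the SS points (9.43 to 17.4) lie above the NS points (4.86 to 8.44), while the groups overlap for the other ratios.

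The miRNAs outside the set whose levels were most like each member were taken by Pearson's r over the 9 libraries among 241 tested miRNAs, as a description without a test, since all points come from the same libraries. For bta-miR-96 they were bta-miR-192 (r = 0.960), bta-miR-141, bta-miR-194, bta-miR-200b and bta-miR-200c. For bta-miR-182 they were bta-miR-375 (r = 0.967), which is known from enteroendocrine and pancreatic islet cells, bta-miR-429 (r = 0.965), bta-miR-200a, bta-miR-200c and bta-miR-200b. For bta-miR-183 they were bta-miR-200b (r = 0.964), bta-miR-200c, bta-miR-375, bta-miR-200a and bta-miR-192. All 15 places were held by miRNAs of the epithelial list or by bta-miR-375.

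bta-miR-1271 had other neighbours and looser ones. They were bta-miR-409a (r = 0.711), which belongs to the imprinted DLK1-DIO3 locus in mammals, bta-miR-378 (r = 0.640), bta-miR-378c (r = 0.598), bta-miR-99b (r = 0.581) and bta-miR-2285u (r = 0.549), a member of a ruminant miRNA family. bta-miR-378 and bta-miR-378c are close in sequence, so that reads may be split between them and their values are uncertain. Ordered by r with bta-miR-1271 among 244 miRNAs, bta-miR-96 was at place 14, bta-miR-183 at place 18 and bta-miR-182 at place 34, beside a median place of 30 for the epithelial list. In the opposite direction bta-miR-1271 was at places 97 to 168 for the 3 cluster members, whereas each cluster member was within the first 11 places of the others.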

How the data were processed

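Small RNA libraries (Illumina TruSeq small RNA kit) were made by the authors from 100 mg of rectal tissue of 9 steers. The authors matched the reads to miRBase with the sRNA toolbox, and the submitters' processing notes name Bowtie and edgeR. Versions, the genome build and allowed mismatches were not given in the sources used here, and none was assumed. The deposited values, called CPM or RPM by the authors, are a signal scaled to the library: the columns sum to 1024945 to 1089433. Divided by the step of its library, 100% of the values came out whole within 1e-06 reads, so reads and library totals were recovered. The sum exceeded the total by 2.49% to 8.94%, as happens when a read is listed under more than 1 miRNA, which was not tested. Reads sequenced but not assigned may be missing from this total.

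Groups and steer numbers came from the sample titles. The NS steers were pen-mates of SS steers per the study's methods, but which steers were penned together is not stated there or in the labels, so pen could not be used as a block. Values were taken as log2(CPM + 1), so differences of low miRNAs depend on the pseudocount and can come out smaller or larger. SS were compared with NS by limma 3.58.1 (R 4.3.3, trended prior, Benjamini-Hochberg over the 245 miRNAs at 5 CPM or more in at least 4 libraries). A call required a log2 difference larger than 1 in size with an adjusted p under 0.1. Ratios and relative levels were tested by two-sided exact permutation of the libraries, whose smallest p is 0.00794, with an adjusted p of 0.05 as threshold. Correlations had permutation p. SciPy 1.17.1 was used, and edgeR 4.0.16 and DESeq2 1.42.0 on the recovered reads were alternatives, beside other pseudocounts, filters and scalings and leaving out each library. The limma step was tested on simulated data. The miRNAs named were the 4 members, the fixed cell type lists and the 5 miRNAs most correlated with each member. These members and lists were chosen with earlier results of these data known. Mature sequences were not used here, so other miRNAs with a member's seed were not looked for.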

Additional observations from a re-analysis of the deposited data

Results flagged for a closer look

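Among 26 groups of values examined, 2 held a library far from the rest of its group, where chance gives about 1 in 20. The share of bta-miR-1271 in the pair with bta-miR-96 was 39.5% in SS steer 287, while the other SS libraries were at 82.8% to 98.9%. The level of bta-miR-182 relative to the epithelial mean was -0.75 log2 units in NS steer 242, while the other NS libraries were at -1.40 to -1.36. NS steer 242 also had the highest summed leukocyte miRNAs, 42682 CPM, where NS steers 108, 152 and 165 had 3451 to 5651 CPM, and their part in its value was not tested.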

How the results depend on the processing

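Of the values recomputed, 314 kept their direction and, where a test was made, their side of the threshold. Another 22 changed direction, 5 passed the threshold newly, 8 no longer passed it and 4 without a test moved. The number of miRNAs called was 1 without a filter, 1 by the edgeR exact test and 9 by DESeq2, and 0 with any library left out. The log2 difference of bta-miR-96 was -0.0892 with a pseudocount of 0.5 CPM, 0.56 after TMM scaling, 0.50 after median-of-ratios scaling, 0.92 and 0.90 by the edgeR quasi-likelihood and exact tests, 0.94 by DESeq2 and -0.48 to 0.80 without single libraries. That of bta-miR-182 was -0.65 after TMM scaling, -0.74 after median-of-ratios scaling, -0.16 by both edgeR tests, -0.13 by DESeq2 and -2.004 to -0.31 without single libraries. That of bta-miR-1271 was 2.24 after TMM scaling, 2.16 after median-of-ratios scaling, 2.52 by both edgeR tests, 2.54 by DESeq2 and 1.05 to 1.86 without single libraries. That of bta-miR-183 was 0.27 after TMM scaling, 0.19 after median-of-ratios scaling, 0.51 by both edgeR tests, 0.53 by DESeq2 and -1.005 to 0.59 without single libraries. The ratio of bta-miR-96 to bta-miR-182 differed by 1.46 with 1 CPM added to both and 0.91 to 1.43 without single libraries. That of bta-miR-183 to bta-miR-182 differed by 0.73 to 0.996 without single libraries. That of bta-miR-96 to bta-miR-183 differed by 1.02 with the library total as a covariate (chosen after seeing the data) and -0.0836 to 0.45 without single libraries. bta-miR-96 differed by 0.95 relative to the miR-200 family alone and by 0.49 relative to bta-miR-192, bta-miR-194 and bta-miR-215 alone. The r of bta-miR-1271 with bta-miR-182 was -0.0022 with bta-miR-143 left out, -0.15 without 2 libraries and -0.0133 to 0.30 without single ones. The r of bta-miR-1271 with the epithelial mean was -0.0558 to 0.36 without single libraries. With smooth muscle it was 0.27 after TMM scaling, 0.0582 without 2 libraries and -0.59 to 0.22 without single ones. It was 0.0834 with bta-miR-143 left out of both the scaling and the smooth muscle mean. The cause of these changes was not tested. No paired analysis was possible because no steer number occurs in both groups and the pens are not given by steer. Depth limits bta-miR-96 most, at 1 read in SS steer 274 and 3 in NS steer 242.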
